A study of Mus musculus with 20 samples.

Results

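The transcripts described here are those whose gene symbol carries a proteasome prefix, Psma to Psmg followed by a number. The rule matched 49 of the 23284 genes listed in each library. They comprised 19 subunits of the core particle (8 of the alpha ring and 11 of the beta ring), 9 of the base and 8 of the lid of the regulatory particle, 5 activators or inhibitors and 7 assembly chaperones. The remaining match, Psmc3ip, shares the prefix but encodes a partner in meiotic recombination, not a proteasome subunit. Of the 49, 48 passed the filter on low counts, and Psmb8, at a mean of 0.336 TPM in the inputs, was not tested.

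RNA immunoprecipitation followed by sequencing (RIP-Seq) was used to ask which mRNAs are held by Tet1 and Tet2, dioxygenases that oxidise 5-methylcytosine, in mouse embryonic stem cells (ESCs). The genotypes were Tet1-KI (2 IP and Input pairs), Tet2-KI (4 pairs) and Tet2dRBD-KI (4 pairs), in which the RNA-binding domain of Tet2 was deleted. In all of them the endogenous gene carried a C-terminal Flag, HA and Twin-Strep tag, and the cells were otherwise wild type, grown from picked clones on gelatin with serum and LIF and given no further treatment. IP libraries came from anti-Flag precipitates of cytoplasmic extract and Input libraries from total RNA without antibody, so that the fraction and the precipitation cannot be told apart in any IP to Input ratio.

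Each library summed to 21078995 or more expected counts, and to 37576638 at most. The summed level of 5 ESC markers was between 3028 and 4030 TPM in the inputs, and the leukocyte marker Ptprc did not exceed 0.05 TPM. The 4 fibroblast markers summed to between 10.7 and 63.2 TPM in the inputs and 14.5 and 48.4 TPM in the IPs, and 0 of 4 were called in any line. The 4 endoderm and mesoderm markers ranged more widely, from 4.91 to 89.0 TPM in the inputs and 3.80 to 98.6 TPM in the IPs, and 2 of the 3 tested were lower in the IP of Tet2 and of Tet2dRBD. The 2 neural markers summed to 7.39 to 19.7 TPM in the inputs and 7.08 to 31.6 TPM in the IPs, with none called. The part of these markers in the results below was not tested. Replicates 1 and 2 of the Tet2 and Tet2dRBD lines belong to library sets of their own, whereas replicates 3 and 4 and both Tet1 replicates form another set. The sets were inferred from how the deposited libraries are numbered, not from the labels. Replicates 3 and 4 of a group were much closer to each other than to replicates 1 and 2, with a chi-square per gene of 2.69 to 16.1 against at least 132, and each was counted as 1 of n = 4. Replicates 1 and 2 held most of the extreme Input levels. In Tet2dRBD, for instance, the replicate 2 input was the lowest of the 4 inputs for 17 of the 49 transcripts and the highest for 23. In bulk RNA, fewer cells that express a gene and less RNA per cell cannot be told apart. The labels do not say that replicates were separate cultures, so the p-values measure only the spread between these samples.

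The proteasome degrades proteins that carry ubiquitin chains. Its core particle is a barrel of stacked alpha and beta rings, with the proteolytic sites inside the beta rings. The regulatory particle caps the barrel, and consists of a base with AAA ATPases that unfold the substrate and a lid that removes ubiquitin. Proteasome activity is known to be high in ESCs, and the subunit genes are largely transcribed as a coordinated group.

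C and U runs were examined because C and U rich sequence was among the features the study looked at in Tet-bound RNA. The study described its motif within sites enriched for 5-hydroxymethylcytosine, and found Tet1 and Tet2 mostly on introns. The spliced transcripts used here hold no introns, so that motif was not examined. In each member's GENCODE transcript (mm9, release M1), the longest uninterrupted run of C and U was located. The windows below show this run in the 3 members that were higher in the Tet2 IP, Psmd1, Psme4 and Psmc4, and in 3 members that were lower there on both scales used below, Psme3, Psmb2 and Psmd4, chosen for transcripts whose length was close to that in the deposited files. The strand is that of the transcript, capitals mark the run, and T stands for U.
Psmd1, chr1:88024805-88024823, plus strand, coding sequence in exon 20: ctggTTTCCCCTTTCacac
Psme4, chr11:30704399-30704419, plus strand, coding sequence in exon 5: cctaCCTCCCTTCCTCCagaa
Psmc4, chr7:28826812-28826829, minus strand, 3′ UTR in exon 11: gtgaCCTCCTCCCCacac
Psme3, chr11:101183481-101183510, plus strand, 3′ UTR in exon 11: TTTTTTCTTCCCTTCTCTCCCCCTTCCCCT
Psmb2, chr4:126386876-126386897, plus strand, 3′ UTR in exon 6: ctcaTTTTTTTTTTTTCTactc
Psmd4, chr3:94836619-94836633, minus strand, 3′ UTR in exon 10: caagTTTTCCCCTTT
The runs in the 3 higher members were 11, 13 and 10 bases long, and those in the 3 lower members 30, 14 and 11. The run of Psme3 was the longest of these 6, and it belongs to the member that was lower in all 3 lines. Psmg4, also lower on both scales, has a run of 11 bases and is not shown. Its transcript differed from the deposited length by 35 bases, against 45 for Psme3, so length alone did not decide which were shown. Across the 48 tested members, Spearman's rho of run length with the fitted ratio was -0.32 in Tet1, -0.25 in Tet2 and -0.29 in Tet2dRBD, whereas over 13110 genes it was near 0 (-0.08, 0.06 and 0.03). No member was left out for a GENCODE transcript unlike the deposited one in length. The difference was 1720 bases for Psma2 and 1426 for Psma3, both with runs in the 3′ UTR. The C and U shares below have the same limit. Over these genes the median run was 13 bases, 81.7% had a run of at least 11 and 4.90% one of at least 30. These runs are a description of the letters and not binding sites.

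Before precipitation, the core subunits were the most abundant of the group. Their median Input level was 410 TPM over the 17 core genes with a mean of at least 1 TPM, against 177 TPM for the base, 142 TPM for the lid, 85.4 TPM for activators and inhibitor and 69.3 TPM for the chaperones. Together the 49 transcripts made up 0.739% to 1.06% of all TPM in the inputs and 0.809% to 1.14% in the IPs. TPM is already scaled by transcript length, so these levels can be compared between genes.

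By its mean over the 10 inputs, the most abundant transcript was Psmb3, a structural beta subunit, at 727 TPM ± 198 (SD over the 10 inputs). Psmb4, another structural beta subunit, followed at 615 TPM ± 171 and Psmb6, which carries the caspase-like site, at 504 TPM ± 83.9. The SD is the spread between libraries, and the order was not tested. Within libraries, Psmb3 was above Psmb4 in each Tet2 and Tet2dRBD input, such as 961 against 700 TPM in replicate 2 of Tet2. In both Tet1 inputs it was below Psmb4, at 608 and 654 against 819 and 837 TPM.

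The catalytic subunits of the constitutive proteasome were more abundant than their interferon-inducible counterparts. Psmb5, with the chymotrypsin-like site, had 471 TPM ± 105 and Psmb7, with the trypsin-like site, 410 TPM ± 60.3. Their immunoproteasome counterparts Psmb8 and Psmb10 had 0.336 TPM ± 0.337 and 36.4 TPM ± 16.5, and Psmb9, the counterpart of Psmb6, 8.02 TPM ± 2.65. Psmb10 still ranked above 86.3% of all genes, close to Psmd1, and it was uneven between libraries. Its Input level was 8.71 TPM in replicate 1 of Tet2dRBD and 10.3 TPM in replicate 1 of Tet2, against 32.2 to 58.2 TPM in the other 8 inputs. Psmb11, restricted to thymic epithelium in the adult, was at 0.304 TPM ± 0.0815, and Psma8, an alpha subunit of male germ cells, at 9.40 TPM ± 3.90.

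**Figure D1:**
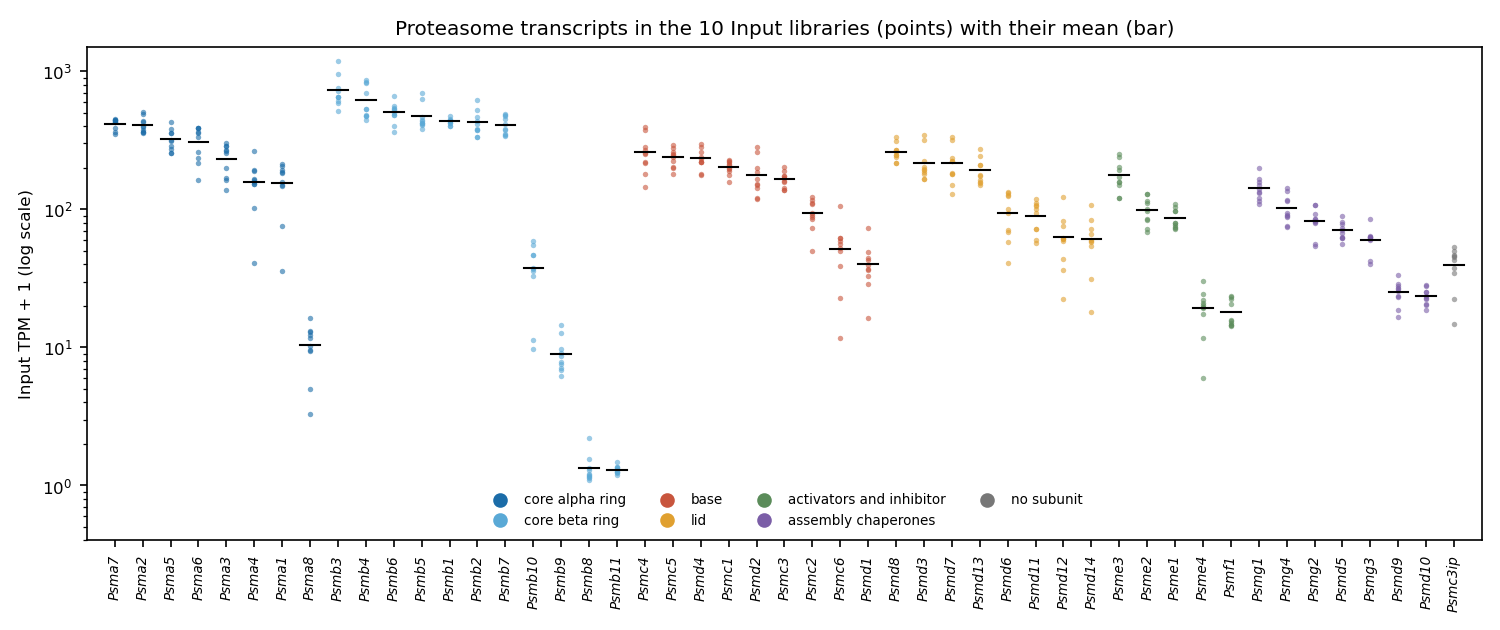
Level of each of the 49 transcripts in the 10 Input libraries (vertical axis, TPM + 1, log scale). Points are libraries, bars are means over the 10 inputs, colours are subunit classes and genes are ordered by mean within a class. Constitutive beta subunits lie highest (Psmb3 at 727 TPM), while Psmb8 and Psmb11 lie below 1 TPM.

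The level of these transcripts in the inputs did not differ detectably between the Tet2 and Tet2dRBD lines. By edgeR's quasi-likelihood test, 0 of the 48 tested members and 0% of 13178 genes had an adjusted p under 0.05. At an unadjusted p under 0.05 there were 0 members and 248 genes, and DESeq2 called 0 members and 9 genes. Same-numbered inputs of both lines deviated together (r of 0.68 to 0.89), and with the replicate number as a block 0 members and 5 genes had an adjusted p under 0.05, while 4 members and 1648 genes had an unadjusted p under 0.05. The 4, Psmc4, Psmc5, Psmd2 and Psmd4 of the base, were lower in Tet2 by 0.18 to 0.22 on the log2 scale (adjusted p = 0.29 to 0.40). Without the block, the fitted differences (Tet2 minus Tet2dRBD, log2) of the members had a median of -0.13, beside -0.04 over all genes.

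The central question was whether the Tet IPs carried more or less of these mRNAs than their inputs. In the Tet2 IP, 3 members were higher and 17 lower than Input (edgeR, adjusted p under 0.05), 20 of 48 in all. Over all 13710 genes tested, 14.6% were higher and 18.5% lower, 33.1% in all. In Tet2dRBD 1 member was higher and 8 were lower, 9 of 48 in all (7.4%, 12.1% and 19.5% of all genes), and in Tet1 1 was higher and 1 lower, 2 of 48 in all (2.72%, 3.18% and 5.9%). Only in Tet2, and only for the lower calls, was the share of members well above that of all genes, and this was not tested. Psmd1 was the 1 transcript higher in all 3 lines and Psme3 the 1 lower in all 3.

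The split depended on the scale. edgeR on TMM-normalised counts sets the median of all genes near 0 (0.00 on the log2 scale in Tet2), whereas on log2(TPM + 1) the same median was 0.23 in Tet2, 0.19 in Tet2dRBD and 0.08 in Tet1. With limma on log2(TPM + 1), the members called were 14 higher and 6 lower in Tet2, 12 and 2 in Tet2dRBD, and 1 and 1 in Tet1, while the share of all called genes that was higher went from 44.2% to 81.2%, from 37.9% to 83.7% and from 46.1% to 77.4%. Changes are therefore read relative to the median gene. On both scales, and by DESeq2, the calls shared in Tet2 were Psmc4, Psmd1 and Psme4 higher and Psma2, Psma3, Psmb2, Psmd4, Psme3 and Psmg4 lower. In Tet2dRBD the shared calls were Psmd1 higher and Psma3 and Psme3 lower.

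**Figure D2:**
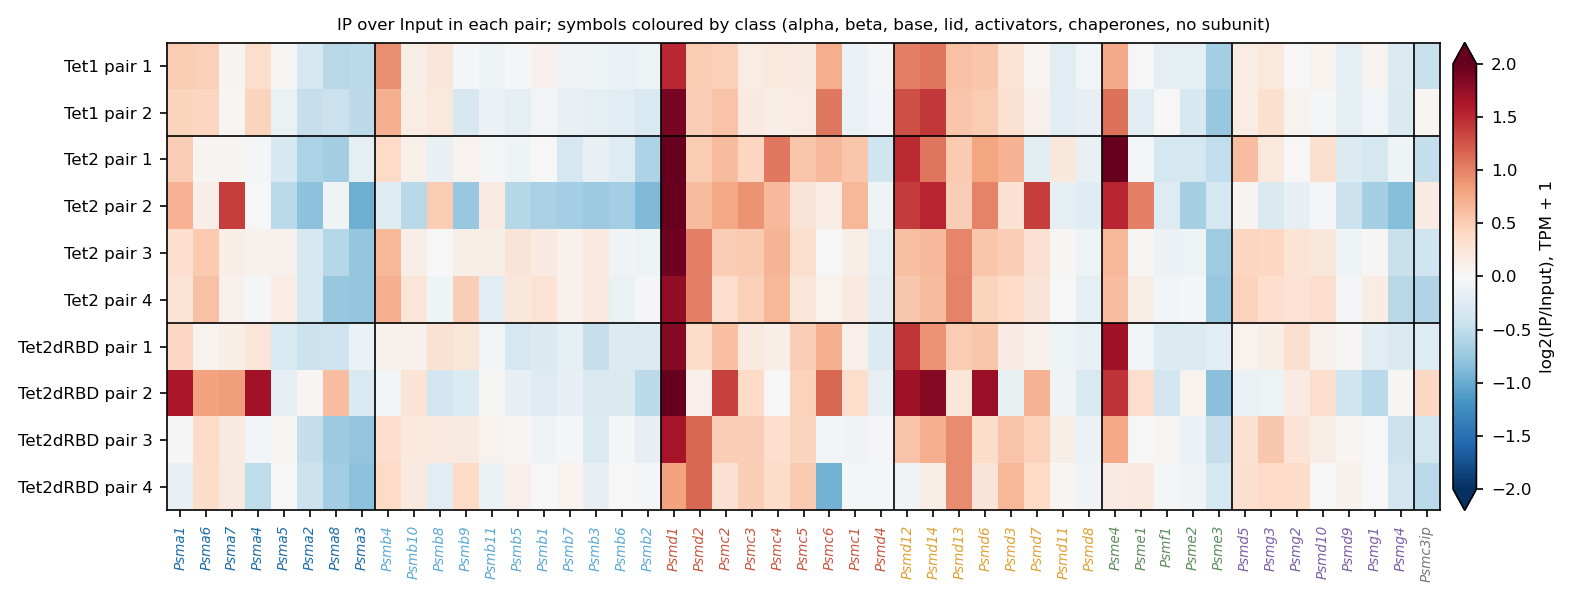
log2(IP/Input) of TPM + 1 for each transcript (columns, grouped by class and ordered by mean within a class) in each of the 10 pairs (rows). Red is higher in IP and blue lower, and values past the ends of the scale take its end colour. Psmd1 is red in all 10 pairs and Psme3 blue in all 10, and most base and lid transcripts are red in most pairs. The beta ring is mixed, with Psmb2 and Psmb6 blue in all 10 pairs and Psmb4 red in 8 of 10.

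Psmd1 encodes Rpn2, the large scaffold on which the base is assembled. Its Input level was 35.7 and 28.0 TPM in Tet1, and its IP level 103 and 107 TPM. In Tet2, Input replicates 1 to 4 held 41.7, 38.5, 31.7 and 35.3 TPM and the IPs 266, 358, 125 and 123 TPM. In Tet2dRBD the inputs held 48.2, 15.3, 43.6 and 72.1 TPM and the IPs 175, 81.0, 139 and 127 TPM. IP and Input levels did not overlap in any line, and the largest ratios were those of replicates 1 and 2 of Tet2. The fitted log2 ratio was 1.59 ± 0.36 (SE, edgeR adjusted p = 0.034) in Tet1, 2.10 ± 0.26 (adjusted p = 0.00037) in Tet2 and 1.41 ± 0.26 (adjusted p = 0.0053) in Tet2dRBD. In Tet2, 0.934% of the tested genes had a higher fitted ratio. In Tet1 the call was lost without either pair (adjusted p = 0.29 without replicate 1 and 0.57 without replicate 2), whereas in Tet2 and Tet2dRBD the ratio remained between 1.90 and 2.25 and between 1.15 and 1.69 on leaving out any pair, with every call kept.

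Psme4 and Psmc4 were the other members higher in Tet2. Psme4 encodes PA200, a large activator that caps the core in place of the regulatory particle. Its Input levels in Tet2 were 16.6, 10.7, 19.2 and 19.8 TPM and its IP levels 69.5, 32.5, 31.1 and 30.8 TPM, without overlap. The fitted log2 ratio was 0.93 ± 0.27 (edgeR adjusted p = 0.023), with adjusted p = 0.092 without replicate 1 and 0.064 without replicate 2. In Tet2dRBD it was 0.81 ± 0.27 (adjusted p = 0.060) and in Tet1 0.81 ± 0.38 (adjusted p = 0.22), values that did not pass the threshold. On the TPM scale IP exceeded Input in 10 of 10 pairs, as it did for 22.7% of genes with a mean Input of at least 1 TPM. In pair 4 of Tet2dRBD, Psme4 lay below the median gene (log2 ratio 0.16 against 0.18).

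Psmc4 encodes Rpt3, an ATPase of the base. In Tet2 its inputs held 144, 374, 214 and 219 TPM and its IPs 300, 586, 344 and 346 TPM. The ranges overlapped because replicate 2 was high in both, but IP exceeded Input in 4 of 4 pairs. The fitted log2 ratio was 0.45 ± 0.11 (edgeR adjusted p = 0.0099) in Tet2, -0.06 ± 0.11 (adjusted p = 0.70) in Tet2dRBD and 0.02 ± 0.15 (adjusted p = 0.95) in Tet1. The Tet2 call was lost with replicates 3 and 4 summed (adjusted p = 0.066) and without the pairing of IP and Input (adjusted p = 0.50).

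Psme3 encodes PA28γ, a nuclear activator of the core. In Tet1 the inputs held 192 and 200 TPM and the IPs 119 and 118 TPM. In Tet2 the inputs held 119, 237, 156 and 150 TPM and the IPs 84.5, 186, 95.2 and 88.5 TPM. In Tet2dRBD the inputs held 120, 253, 171 and 157 TPM and the IPs 103, 141, 124 and 123 TPM. The group ranges overlapped in Tet2 and Tet2dRBD, where replicate 2 was the highest library of both kinds, yet IP was below Input in 10 of 10 pairs. The fitted log2 ratio was -0.87 ± 0.13 (edgeR adjusted p = 0.019) in Tet1, -0.90 ± 0.09 (adjusted p = 0.00016) in Tet2 and -0.75 ± 0.09 (adjusted p = 0.00082) in Tet2dRBD. The Tet1 call was again lost without either pair (adjusted p = 0.29 without replicate 1 and 0.57 without replicate 2).

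**Figure D3:**
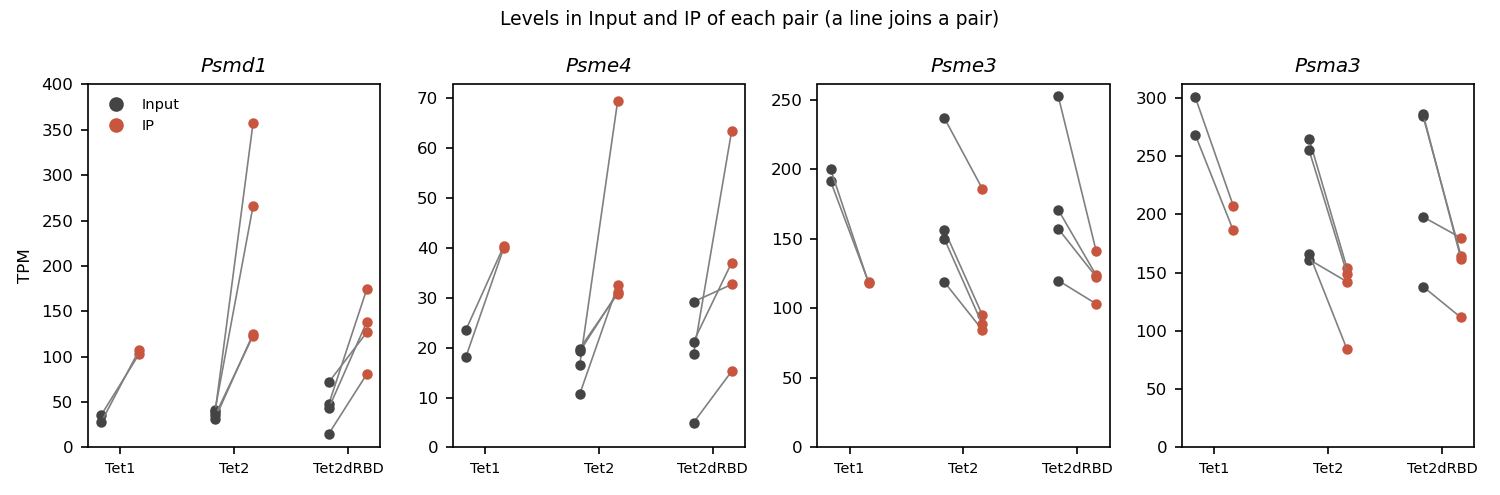
TPM of Psmd1, Psme4, Psme3 and Psma3 in Input (dark) and IP (red) of each pair, by line, each panel on its own linear axis from 0. A line joins the libraries of a pair. Psmd1 and Psme4 climb and Psme3 and Psma3 drop in all 10 pairs, and the steepest Psmd1 lines are the 2 Tet2 pairs that reach 266 and 358 TPM.

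Within the core, 0 of the 18 tested members were higher in any line by edgeR. By the same test 7 were lower in Tet2 and 3 in Tet2dRBD (18.5% and 12.1% of all genes). The shares of all genes that were higher were 2.72% in Tet1, 14.6% in Tet2 and 7.4% in Tet2dRBD. On the TPM scale as well, only Psma2, Psma3 and Psmb2 were lower in Tet2 and only Psma3 in Tet2dRBD. On that scale (limma) Psma6 was called higher in Tet2dRBD, where 83.7% of all called genes were higher. The 7 lower in Tet2 by edgeR were Psma2, Psma3, Psma5 and Psma8 of the alpha ring and Psmb2, Psmb6 and Psmb7 of the beta ring. Psma3 encodes a subunit of the outer, alpha ring. It had Tet2 inputs of 161, 166, 265 and 255 TPM and IPs of 142, 84.2, 154 and 149 TPM, without overlap, and a fitted log2 ratio of -0.998 ± 0.159 (edgeR adjusted p = 0.0013). In Tet2dRBD its ratio was -0.79 ± 0.16 (adjusted p = 0.0083), with adjusted p = 0.054 without replicate 3 and 0.057 with replicates 3 and 4 summed. Psma2, of the alpha ring as well, fell by 0.85 in Tet2 (adjusted p = 0.0032) and by 0.60 in Tet2dRBD (adjusted p = 0.025) on the log2 scale. The Tet2dRBD call of Psma2 was lost without replicate 1 (adjusted p = 0.10), 3 (0.12) or 4 (0.062). Its Tet2 inputs lay between 360.0 and 391 TPM and its IPs between 221 and 291 TPM, again without overlap.

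Of the constitutive catalytic subunits, Psmb6 and Psmb7 were lower in Tet2, with fitted log2 ratios of -0.61 ± 0.14 (edgeR adjusted p = 0.0086) and -0.53 ± 0.16 (adjusted p = 0.029), while Psmb5 had -0.36 ± 0.17 (adjusted p = 0.13). The Psmb7 call was lost without replicate 1 (adjusted p = 0.15) and without replicate 2 (-0.31, adjusted p = 0.12), and that of Psmb6 without replicate 1 (adjusted p = 0.051). Neither passed with limma on TPM (adjusted p = 0.0504 for Psmb6 and 0.19 for Psmb7), and the differences between these 3 genes were not tested. The immunoproteasome subunits Psmb9 and Psmb10 had -0.34 ± 0.24 and -0.33 ± 0.16 and were not called in any line. Psma8 was lower in Tet2 at -0.92 ± 0.26 (adjusted p = 0.019), where its level did not exceed 11.9 TPM in any library, a call lost without replicate 1 (adjusted p = 0.095) or 4 (0.060). Psmb3, lower in Tet2dRBD at -0.57 ± 0.18 (adjusted p = 0.046), lost that call on leaving out any 1 Tet2dRBD pair, and Psmb4 was not called in any line although its Tet1 IPs held 1567 and 1371 TPM against inputs of 819 and 837 TPM.

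In the base, Psmd1 and Psmc4 were higher and Psmd4 lower in Tet2 by edgeR, and the other 6 of 9 were not called. Of all genes, 14.6% were higher and 18.5% lower there. DESeq2 called Psmd2 higher in Tet2 as well. With limma on log2(TPM + 1), Psmc1, Psmc2, Psmc3, Psmc5 and Psmd2 were also higher there, as were 81.2% of all genes it called. Psmd4 encodes Rpn10, a ubiquitin receptor at the boundary of base and lid. Its fitted log2 ratio was -0.55 ± 0.10 (edgeR adjusted p = 0.0035) in Tet2 and -0.40 ± 0.10 (adjusted p = 0.024) in Tet2dRBD, the latter lost without replicate 1 (adjusted p = 0.13) or 3 (0.089). Psmd2, which encodes Rpn1, the other large scaffold, had 0.47 ± 0.19 (adjusted p = 0.072) in Tet2. Its TPM in IP exceeded Input in all 10 pairs, as did that of 22.7% of genes with a mean Input of at least 1 TPM.

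In the lid, of 8 members, Psmd8 and Psmd11 were lower in Tet2 by edgeR and Psmd8 also in Tet2dRBD (18.5% and 12.1% of all genes). In Tet2dRBD the ratio of Psmd8 was -0.44 (edgeR adjusted p = 0.013, and 0.076 without replicate 1 or without replicate 3). The Psmd11 call was lost on leaving out any 1 Tet2 pair, and its sign turned to 0.01 with limma on TPM. DESeq2 called Psmd12, Psmd13 and Psmd14 higher in Tet2 and Tet2dRBD and Psmd14 in Tet1, with Psmd8 lower in Tet2 and Tet2dRBD. Of all genes it called, 49.7% were higher in Tet2 and 53.7% in Tet2dRBD. With limma on log2(TPM + 1), Psmd6, Psmd12, Psmd13 and Psmd14 were higher in Tet2 and Tet2dRBD, and Psmd3 in Tet2. Of all genes it called, 81.2% and 83.7% were higher. Psmd14, the deubiquitinase Rpn11, and Psmd12 had the largest lid ratios without passing the edgeR threshold. Psmd14 had a fitted log2 ratio of 1.11 (adjusted p = 0.079) in Tet1, 0.67 (adjusted p = 0.053) in Tet2 and 0.62 (adjusted p = 0.096) in Tet2dRBD. Its TPM in IP was above Input in 10 of 10 pairs, as for 22.7% of genes with a mean Input of at least 1 TPM. In pair 4 of Tet2dRBD, Psmd14 lay below the median gene (log2 ratio 0.13 against 0.18). Psmd12 had 1.01 (adjusted p = 0.13), 0.71 (adjusted p = 0.061) and 0.64 (adjusted p = 0.12).

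Among the 5 regulators, Psme2, Psme3 and the inhibitor Psmf1 were lower in Tet2, and Psmf1 and Psme3 also in Tet2dRBD (18.5% and 12.1% of all genes). Psmf1 had a fitted log2 ratio of -0.53 ± 0.12 (edgeR adjusted p = 0.0071) in Tet2, with adjusted p = 0.068 without replicate 1. Of the 7 chaperones, Psmd9, Psmg1 and Psmg4 were lower in Tet2 and Psmg4 also in Tet2dRBD, beside the same shares of all genes. Psmg4, a chaperone of the alpha ring, had -0.79 ± 0.15 (adjusted p = 0.0037) and -0.55 ± 0.15 (adjusted p = 0.030). Its Tet2dRBD call was lost without replicate 1 (adjusted p = 0.11), 3 (0.14) or 4 (0.072). Psmc3ip, which is no subunit, had -0.66 ± 0.18 (adjusted p = 0.020) in Tet2, with adjusted p = 0.11 without replicate 1 and 0.067 without replicate 4.

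Counts of calls rested on few pairs. Of the 20 called members of Tet2, 8 remained called whichever pair was left out, namely Psmc4 and Psmd1 higher and Psma2, Psma3, Psmd4, Psmd8, Psme3 and Psmg4 lower. Of the 9 of Tet2dRBD, 2 did, Psmd1 higher and Psme3 lower, and of the 2 of Tet1, 0 did. With replicates 3 and 4 summed into 1 replicate, 2 members were higher and 15 lower in Tet2, and 1 was higher and 1 lower in Tet2dRBD.

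Compared as classes, base and lid transcripts had higher IP to Input ratios than core transcripts in every pair. The class median of log2(IP/Input), from TPM + 1, was -0.10 ± 0.08 (SD, n = 2 pairs) for the core, 0.19 ± 0.02 for the base and 0.414 ± 0.0044 for the lid in Tet1. In Tet2 (n = 4 pairs) it was -0.10 ± 0.33, 0.51 ± 0.13 and 0.58 ± 0.14, and in Tet2dRBD (n = 4 pairs) -0.10 ± 0.10, 0.39 ± 0.04 and 0.38 ± 0.14. The corresponding medians over 11784 genes with a mean Input of at least 1 TPM were 0.08, 0.23 and 0.18. The core thus lay below the median gene and the base and lid above it in each line. In Tet2 the core median turned to 0.057 without replicate 2. With the ratios fitted by edgeR the medians in Tet1, Tet2 and Tet2dRBD were -0.26, -0.36 and -0.37 for the core, 0.02, 0.25 and 0.12 for the base and 0.27, 0.27 and 0.26 for the lid. Members are not replicates and were chosen with results known, so no p is attached to a class.

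Pair by pair, the base minus core difference was 0.25 and 0.34 in Tet1, 0.65, 1.22, 0.39 and 0.19 in Tet2 and 0.55, 0.56, 0.47 and 0.36 in Tet2dRBD. The lid minus core difference ran from 0.19 to 1.31. Both were above 0 in 10 of 10 pairs and in each library set, and replicate 2 of Tet2 gave the highest value of each. Its core median of -0.57 stood apart from the other 3 Tet2 pairs, at -0.09 to 0.15. The median of 94 genes with a symbol beginning Rpl or Rps and a digit was also lowest there at -0.69. That match by symbol was not limited to subunits of the ribosome. Lid and base differed less, with lid above base in 8 of 10 pairs, and beta ring above alpha ring in 5 of 10.

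**Figure D4:**
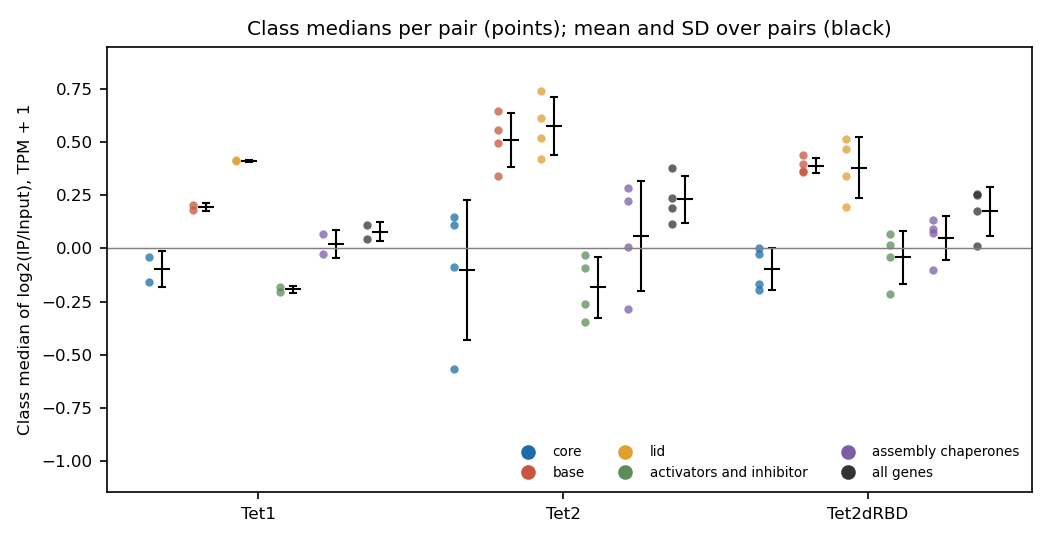
Median log2(IP/Input) of TPM + 1 over each subunit class and over all genes, per pair (points), with mean and SD over the pairs of a line in black (2 pairs in Tet1, 4 in Tet2 and in Tet2dRBD). Base and lid lie above the core in each pair, and the lowest core point is Tet2 replicate 2 at -0.57.

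The study called a transcript enriched where its TPM + 1 in IP exceeded Input. Applied to every replicate of a line, this held for 24 of the 49 members in Tet1, 17 in Tet2 and 16 in Tet2dRBD (33.5%, 28.6% and 19.9% of all genes). Of genes with a mean Input of at least 1 TPM, 50.5%, 47% and 31% met it, beside 23, 17 and 16 of the 47 such members. The opposite, IP below Input in every replicate, held for 18, 12 and 8 of the 49 (20.7%, 7.71% and 5.58% of all genes), and among genes with a mean Input of at least 1 TPM for 17, 12 and 8 of the 47 (32.3%, 13.4% and 9.57%). Across all 10 pairs, 12 of the 47 were above Input (22.7% of genes) and 6 below it (6.48%). The 12 were Psma6 and Psma7 of the core, Psmc2, Psmc3, Psmc4, Psmc5, Psmd1 and Psmd2 of the base, Psmd6, Psmd13 and Psmd14 of the lid, and Psme4. The 6 were Psma3, Psmb2, Psmb6, Psmd4, Psmd8 and Psme3.

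For no member was a dependence on the RNA-binding domain detected. For the difference of IP effects between Tet2 and Tet2dRBD, edgeR called 0 of 48 members and 0.0219% of all genes. At an unadjusted p under 0.05 there was 1 member, Psmc4, and 416 genes, and DESeq2 called 0 members and 28 genes. Psmc4 had a difference of 0.51 ± 0.15 on the log2 scale (edgeR adjusted p = 1.0) and Psmd1 one of 0.69 ± 0.35 (adjusted p = 1.0). With the replicate number as a block across lines, both had an unadjusted p under 0.05 (2 members and 805 genes), with adjusted p = 0.64 and 0.40. These intervals are wide, and a p that misses the threshold does not show that the lines were alike. Between Tet1 and Tet2, 0 members and 0% of genes were called by edgeR, with 1 member, again Psmc4 (-0.42 ± 0.18), and 517 genes at an unadjusted p under 0.05, and 0 members and 13 genes by DESeq2.

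The fitted ratio of the members followed their coding length. In Tet2, Spearman's rho across the 48 tested members was 0.67 (Pearson's r with log2 length 0.70), and 0.65 without Psmd1. In Tet2dRBD rho was 0.58 and in Tet1 0.56. Over 13110 genes rho was 0.57, 0.47 and 0.35, so that the relation was also present across the transcriptome. Genes are not independent replicates and share the same libraries, so these are descriptions and carry no p.

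The classes differ in length as well. Core members had coding lengths of 606 to 909 bases (median 753), the base 1140 to 2862 (median 1323), the lid 933 to 1593 (median 1150.5), and the 3 members higher in Tet2 were 2862 (Psmd1), 5532 (Psme4) and 1257 bases (Psmc4). With a limit of 1200 bases, set after the values were seen, 1 of 12 longer members was lower in Tet2 and 3 were higher, against 16 lower and 0 higher of 36 shorter ones. The same split was not made for all genes, of which 18.5% were lower and 14.6% higher at any length. Their ratios also rose with coding length (rho 0.57). Whether the split is particular to the members was not tested. Whether class or length goes with the ratio was not tested. The 94 genes matched by an Rpl or Rps symbol, not all of them sure to be ribosomal proteins, had 46 lower and 5 higher in Tet2. Mitochondrial ribosomal protein transcripts, matched by Mrpl or Mrps, had 38 of 76 lower and 1 higher. Of all genes, 18.5% were lower and 14.6% higher. In Tet2dRBD the lower and higher counts were 25 and 4 of 94 and 21 and 0 of 76 (12.1% and 7.4% of all genes), and in Tet1 they were 0 and 3 of 94 and 4 and 0 of 76 (3.18% and 2.72%).

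**Figure D5:**
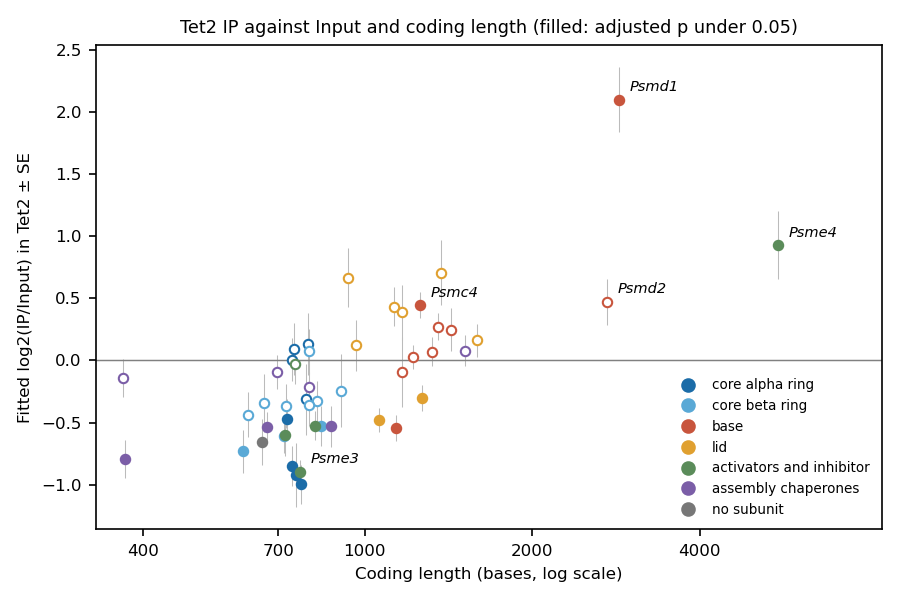
Fitted log2(IP/Input) in Tet2 (vertical axis, bars are SE) against coding length (log scale) for the 48 tested members, coloured by class. Filled points have an edgeR adjusted p under 0.05. Ratios are greater for longer coding sequences (rho 0.67), Psmd1 lies highest at 2.10 and the core subunits lie together at 606 to 909 bases.

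The share of C and U in the spliced transcript went the other way. Its rho with the fitted ratio was -0.36 in Tet2, -0.47 in Tet2dRBD and -0.39 in Tet1 over the 48 members, beside -0.29, -0.35 and -0.35 over 13110 genes. Members with more C and U thus tended to have lower ratios, as did genes at large. Introns, which the spliced transcript lacks, were not examined.

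Other genes of the ubiquitin and proteasome pathway, 27 of 29 of which were matched and tested, were called in both directions. In Tet2, 3 were higher and 10 lower (14.6% and 18.5% of all genes), in Tet2dRBD 2 and 8 (7.4% and 12.1%), and in Tet1 1 and 3 (2.72% and 3.18%). Akirin2, which carries proteasomes into the nucleus, and the ubiquitin shuttle factor Rad23b were lower in all 3 lines. Akirin2 had fitted log2 ratios of -0.92, -0.99 and -1.09 in Tet1, Tet2 and Tet2dRBD (edgeR adjusted p = 0.019, 0.00013 and 0.00026). The ubiquitin genes Ubb and Rps27a were lower in Tet2, at -0.63 and -0.68 (edgeR adjusted p = 0.0033 and 0.014).

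Vcp, the segregase that extracts substrates for the proteasome, was higher in Tet2 and Tet2dRBD at 0.49 and 0.48 (edgeR adjusted p = 0.0061 and 0.012). AI314180, the mouse Ecm29 gene and a proteasome adaptor, was higher there at 1.59 and 1.27 (adjusted p = 0.011 and 0.043). Uchl5, a deubiquitinase of the regulatory particle, was higher in Tet1 at 1.18 (adjusted p = 0.038), and Nfe2l1, the transcription factor of proteasome genes, was not called in any line. The 6 nuclear RNAs used as compartment markers summed to 58.8 to 156 TPM in the inputs and 46.2 to 113 TPM in the IPs, ranges that overlapped. Compared within pairs, the 4 that were tested had a median fitted log2 ratio of -0.18 in Tet1, -0.32 in Tet2 and -0.52 in Tet2dRBD, and 1 of the 4 was lower in Tet2 and 1 in Tet2dRBD. The part of the fraction in the results was not tested.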

How the data were processed

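Proteasome symbols were matched in the 20 RIP-Seq libraries of mouse ESCs. The authors aligned the reads with Bowtie2 and RSEM to the RefSeq transcriptome on mm9 after FastQC and Trimmomatic (versions not given in the sources used here), and deposited expected counts per gene, FPKM (not used) and TPM with 1 added, which was subtracted here. Expected counts depend on how RSEM shares reads between similar transcripts, and TPM on its length estimates. Described IgG controls were not analysed here.

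Groups and replicate numbers came from the labels. Expected counts were rounded and fitted with edgeR 4.0.16 in R 4.3.3 (quasi-likelihood, TMM, 1 CPM in at least 2 libraries, 13710 genes), over all 20 libraries, with a block per IP and Input pair, an IP effect per line and 7 residual degrees of freedom. P-values were adjusted over all genes by Benjamini-Hochberg, with a threshold of 0.05. Standard errors were taken from each log2 ratio and its F statistic. The deposited numbers pair IP with Input: deviations of same-numbered libraries from their group means correlated at 0.60 to 0.87 in Tet2, 0.58 to 0.83 in Tet2dRBD and 0.27 in Tet1. The Input fit used 8 libraries and 13178 genes. Class ratios used log2(TPM + 1) of members with a mean Input of at least 1 TPM. Replicates 3 and 4 differed by more than sampling noise and were kept apart, with their sum as an alternative. The count test was tested on simulated data.

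Named genes were, per line, the 5 highest and 5 lowest called ratios at a mean Input of at least 5 TPM, members differing between lines, catalytic, immunoproteasome and tissue-restricted subunits, the 3 highest and 3 lowest inputs, and matches that are no subunit. Others were named after their values were seen. The members and lists were chosen with earlier results of these data known. Alternatives were DESeq2 1.42.0, limma 3.58.1 on TPM, other filters, pseudocounts, blocks and library choices. Transcript sequences and positions came from GENCODE M1 on NCBIM37 (mm9), taking per gene the transcript with the longest coding sequence. Drawings were made with matplotlib 3.10.9 in Python 3.11.15.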

Additional observations from a re-analysis of the deposited data

Results flagged for a closer look

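In 2 of 48 groups of 4 pairs a value stood apart from the other 3 by more than Dixon's limit, and chance alone gives about 1 in 20 groups. The log2(IP/Input) of Psmc4 in Tet2 was 1.05 in replicate 1, against 0.65, 0.68 and 0.66 in replicates 2 to 4. That of Psma2 in Tet2dRBD was 0.033 in replicate 2, against -0.43, -0.47 and -0.43 in the others. Without the pair that stood apart both fitted ratios kept their direction.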

How the results depend on the processing

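The number of pairs, 2 in Tet1, limits the precision, and depth left only Psmb8 untested. Psmd1 and Psme3 kept their direction in every line under every alternative run. The counts of called members (2 in Tet1, 20 in Tet2 and 9 in Tet2dRBD) became 0, 2 and 0 without the replicate block of IP and Input pairs. Leaving out each pair in turn gave 0 to 0 in Tet1, 8 to 19 in Tet2 and 2 to 10 in Tet2dRBD. DESeq2 gave 4 in Tet1 and 14 in Tet2dRBD, limma on log2(TPM + 1) and on log2(TPM + 0.1) each 14 in Tet2dRBD, the compared line alone 34 in Tet1 and 3 in Tet2dRBD, and replicates 3 and 4 summed 2 in Tet2dRBD. Psmd11 in Tet2 reversed to 0.0140 and 0.0138 with limma at pseudocounts of 0.1 and 1. The cause was not tested. The number of all genes called in Tet1 went from 809 to 1578 with DESeq2, 6985 with the line alone, 316 with replicates 3 and 4 summed and 0 without the block. In Tet2 it went from 4540 to 375 without the block and 2690 without replicate 1, and in Tet2dRBD from 2674 to 748 with the line alone, 1060 with replicates 3 and 4 summed, 46 without the block and 795 without replicate 3. Differences between lines called 0 members under each alternative, including the replicate block across lines, as did the inputs with the replicate number as a block (0 members, 5 genes). No alternative was added after the data were seen.

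Class medians moved with the centring and with single pairs. Leaving out 1 pair turned the sign of the core in Tet2 (from -0.099 to 0.057 without replicate 2), of the chaperones in Tet1 (0.021 to -0.025 without replicate 1) and in Tet2 (0.059 to -0.017 without replicate 4), and of activators and inhibitor in Tet2dRBD (-0.042 to 0.016 without replicate 1). Centred on the median of all genes, the base had 0.11 in Tet1, 0.28 in Tet2 and 0.22 in Tet2dRBD, the lid 0.33, 0.34 and 0.21, activators and inhibitor -0.27, -0.42 and -0.22, the core -0.27 in Tet2dRBD, and the chaperones -0.058 in Tet1 and -0.13 in Tet2dRBD. With ratios fitted by edgeR the core had -0.26 in Tet1 and -0.37 in Tet2dRBD, the base 0.023, 0.25 and 0.12 in Tet1, Tet2 and Tet2dRBD, the lid 0.27 in Tet1 and in Tet2, activators and inhibitor -0.24, -0.53 and -0.36, and the chaperones -0.13, -0.21 and -0.13. With mean IP set against mean Input instead of pairs, the base had 0.17 and activators and inhibitor -0.093 in Tet1.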
